A study of Mus musculus with 6 samples.

Results

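The genes of the respiratory chain and the ATP synthase were examined in tumorspheres of the murine ovarian cancer cells ID8 and KMF. Members were taken by gene symbol from the deposited table: the Nduf, Sdh, Sdhaf, Uqcr, Uqcc, Cox, Atp5 and Atpaf families, with Cyc1, Cycs, Surf1, Sco1, Sco2 and all genes encoded by mitochondrial DNA, leaving out Ndufa4l2. The rule found 50 genes among the 7320 listed, of which 7 are encoded by mitochondrial DNA and 43 in the nucleus. The rule itself used no measured value, but the table holds only genes the authors had called.

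The respiratory complexes and the ATP synthase sit in the inner mitochondrial membrane. Complex I oxidises NADH and complex II oxidises succinate, both pass electrons through coenzyme Q to complex III, and cytochrome c carries them on to complex IV, which reduces oxygen. The ATP synthase lets protons flow back and makes ATP. All but complex II hold subunits from both genomes, so a cell builds the chain from genes of mitochondrial DNA and of many nuclear chromosomes, with assembly factors that build the complexes but do not stay in them.

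ID8 is a clonal line of spontaneously transformed mouse ovarian surface epithelial cells. KMF, labelled ID8-IP in the sample titles, was expanded from ID8 cells recovered from the peritoneal ascites of C57Bl6 mice. Each line gave 3 poly(A) RNA libraries, from ID8 at passages 23, 24 and 35 and from KMF at passages 14, 17 and 22, grown for 5 days without attachment in serum-free XF medium. The libraries of a line are cultures of it at different passages, so the p-values measure the spread between cultures of 1 ID8 line and 1 KMF line. No untreated tissue, other derived line or protein measurement entered the comparison.

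Library totals ran from 23108407 to 33212313 fragments. The table lists only genes that the authors had already called between the lines: its largest adjusted p-value is 0.0499, and its 7320 genes are 42.2% of the 17359 tested. A call, or libraries that do not overlap, was therefore built into being listed, and the counts below are read against the same counts over all listed genes. Of 8 ovarian surface epithelium and mesothelium markers, 4 were listed. Wt1, a transcription factor of that epithelium, stood at 108 ± 12.1 FPKM (mean ± SD, 3 ID8 libraries) and at 77.3 ± 13.2 in the KMF libraries, where FPKM scales fragments by transcript length and library total. The others were Msln at 34.3 ± 4.70 and 91.6 ± 11.5, Krt7 at 1.57 ± 0.664 and 0.260 ± 0.0297, and Upk3b at 25.3 ± 16.4 and 1.70 ± 0.554, ID8 first. No leukocyte marker of 8 was listed, and of 5 endothelial markers Kdr alone was, at 0.0425 FPKM or less on average in each line.

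Most members differed little between the lines. In edgeR's quasi-likelihood test, 49 of the 50 members passed the filter on low counts and 40 were called at an adjusted p under 0.05 (81.6%, against 92.9% of all 6967 genes fitted). Of these, 13 were higher in KMF (26.5% of the 49, against 45.4% of all genes) and 27 were lower (55.1%, against 47.5%). The libraries of the lines did not overlap for 49 of 49 members, against 96.6% of all genes fitted. The median log2 fold change of KMF over ID8 was -0.30 over the members and -0.23 over all genes fitted, with 31 members below 0 and 18 above. The median over all genes turned with the filter: with at least 10 counts in every library it was 0.20, against -0.34 over the members. In limma on log2(FPKM + 1) it was 0.20 over 5981 filtered genes and -0.14 over all 7320 with no filter. The members' median was -0.33 in both.

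The split by direction moved with the scaling. TMM scaling gave 13 higher and 27 lower, DESeq2's size factors 8 and 31, library totals alone 8 and 30, and upper quartile scaling 5 and 31. TMM, DESeq2's size factors and upper quartile scaling were computed on listed genes, which the authors had selected as different between the lines. Library totals alone did not rest on that selection. Upper quartile scaling moved the median of all genes from -0.23 to -0.35, and the members' median moved with it to -0.41. The sign of each fitted member was the same under all 4 scalings. The smallest absolute log2 fold change among them was 0.21, that of Ndufb5, and it was 0.096 at its lowest under these scalings. Being listed required a call by the authors, so the unchanged signs are a description and no support. Of the 13 called higher, Cox7a2, Ndufaf4, Ndufaf6, Ndufb6 and Sdhd were the 5 also called under upper quartile scaling.

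The changes of most members were small beside those of the other listed genes. A change of at least 1.5-fold was called in 8 members (16.3%, against 60.7% of all genes fitted), in 10 under DESeq2's size factors and in 13 under upper quartile scaling. Of the 2116 genes with a mean of at least 20 FPKM in ID8, 847 were called with a change of that size. The median absolute log2 fold change of the 49 members was 0.37 with quartiles of 0.29 and 0.48, against 0.79 over all genes and 0.50 over the 2116 genes with a mean of at least 20 FPKM in ID8. No test was made of this difference. Without Cox6a2, Cox6b2, Ndufaf4, Ndufaf6 and Ndufb6, which were set aside after their values were seen, the other 45 members lay between -0.77 and 0.42.

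**Figure D1:**
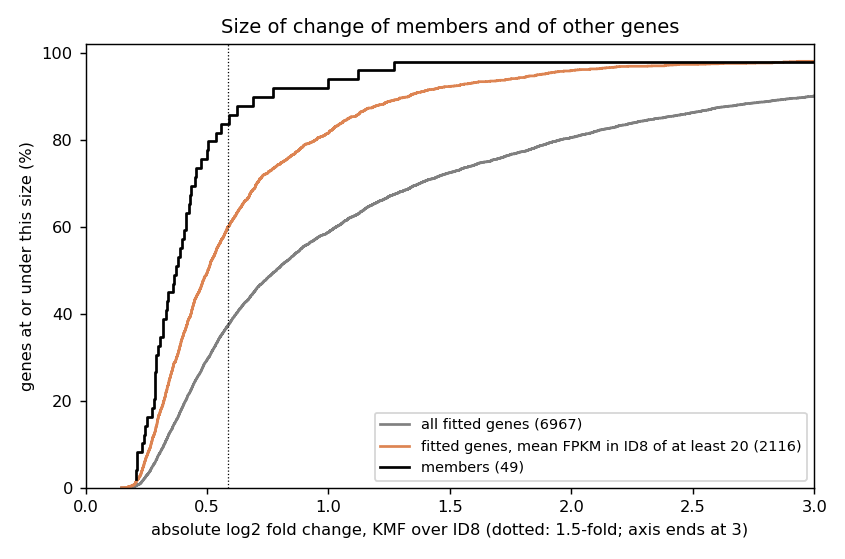
The horizontal axis is the absolute log2 fold change between KMF and ID8 (3 libraries each) and the vertical axis the percent of genes at or under that size. Over most of the axis the curve of the 49 fitted members lies to the left of the curves of all 6967 fitted genes and of the 2116 genes with a mean FPKM of at least 20 in ID8, and crosses the dotted 1.5-fold line at a higher percent than either.

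A list of 133 genes of the chain, its assembly factors and the mitochondrial RNAs gives the reference for each complex. Of these, 84 were not fitted and, but for Cox6a2, are not analysed here, so a median below covers only the members that the authors' test had selected. Of all 6967 genes fitted, 45.4% were called higher and 47.5% lower. Subunits encoded in the nucleus counted 35 fitted of 87, with 9 called higher and 22 lower. Assembly factors counted 7 of 31, with 4 higher and 1 lower. A further list of 27 assembly factors outside the members had 8 listed, of which 2 were higher and 5 lower, and no test of assembly factors against subunits was made.

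**Figure D2:**
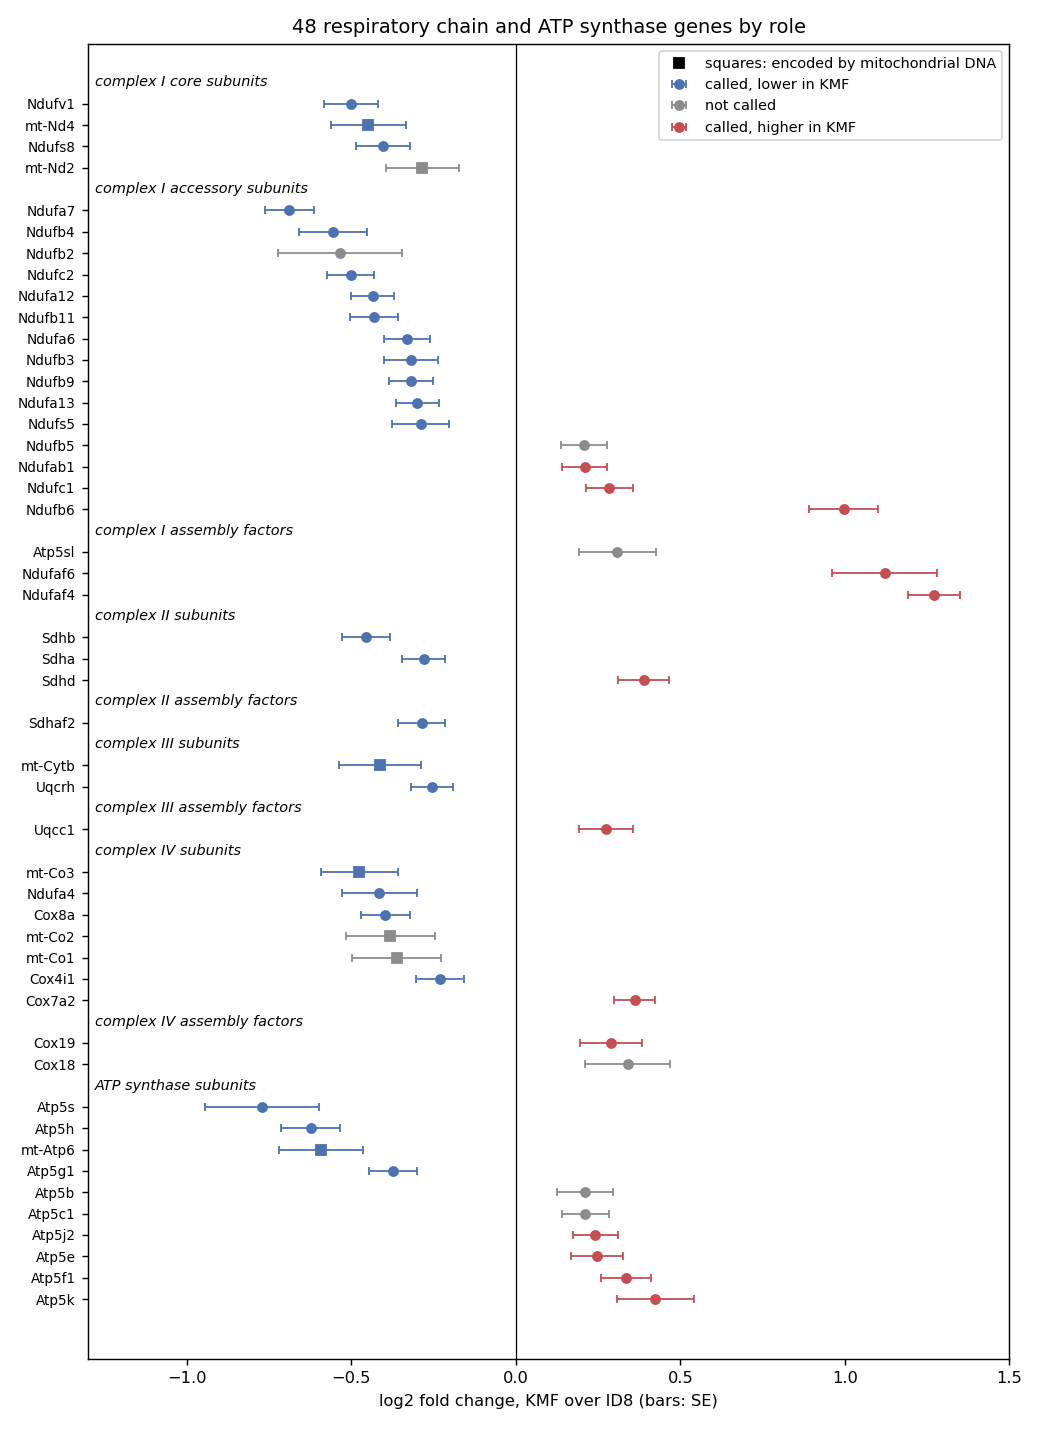
Log2 fold change of KMF over ID8 (horizontal axis, bars are SE, n = 3 libraries per line) for 48 of the 49 fitted members, grouped by role, with squares for genes of mitochondrial DNA and grey for members not called. Cox6b2, at a fitted value of -5.92, lies outside the axis. All 4 complex I core subunits and all 7 mitochondrial genes lie below 0, and all 3 complex I assembly factors lie above 0.

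Complex I, the largest complex of the chain, was lower in most of the subunits listed, while 2 of the 3 complex I assembly factors among the members rose. Of 19 complex I subunits fitted, 13 were called lower and 3 higher. Of all genes fitted, 47.5% were called lower and 45.4% higher. The core subunits do the electron transfer and proton pumping. Of 14 core genes 4 were fitted, and 3 were called, all lower, with a median of -0.43. Ndufv1, which binds the flavin that takes electrons from NADH, measured 125.8, 119.7 and 145.1 FPKM in the ID8 libraries and 88.3, 90.6 and 89.5 in the KMF libraries. Each KMF library lay below each ID8 library, and the log2 fold change was -0.50 ± 0.08 (SE, edgeR adjusted p = 0.00199). Ndufs8, an iron-sulfur subunit, was at 98.7, 95.1 and 107.9 FPKM in ID8 and 67.7, 77.7 and 76.4 in KMF, a log2 fold change of -0.40 ± 0.08 (adjusted p = 0.0056).

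The accessory subunits surround that core and are needed for its stability. Of 30 accessory genes 15 were fitted, 10 were called lower and 3 higher, with a median of -0.32. Ndufa7 fell most, from 251 (249.5, 234.2 and 268.9) to 151 FPKM (158.3, 145.4 and 150.2), a fold of 1.61 lower (log2 fold change -0.69 ± 0.07, edgeR adjusted p = 0.000294). Ndufb4 fell by 0.56 ± 0.10 (SE) on the log2 scale (adjusted p = 0.004) and Ndufc2 by 0.50 ± 0.07 (adjusted p = 0.00103). The other 7 called lower (Ndufa12, Ndufb11, Ndufa6, Ndufb3, Ndufb9, Ndufa13 and Ndufs5) lay between -0.43 and -0.29. The call for Ndufs5 was lost without any library but ID8 replicate 1 (adjusted p up to 0.14) and that for Ndufb3 without KMF replicate 1 or 2 (up to 0.0781). Ndufb2 had a log2 fold change of -0.54 with an SE of 0.19 and an adjusted p of 0.059, at a mean of 2.85 FPKM in ID8, the lowest level of these subunits over a listed length of 4371 bases.

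Ndufb6, a subunit of the membrane arm, went the other way. It measured 39.8, 41.3 and 50.9 FPKM in ID8 and 83.1, 84.9 and 88.1 in KMF. The lowest KMF library lay above the highest ID8 library, and the fold was 1.99 (log2 fold change 1.00 ± 0.10, edgeR adjusted p = 0.000249). Its exons share 257 bases with Smim27 on the opposite strand, and whether the counting used strand is not given in the sources used here. Ndufc1 rose by 0.28 ± 0.07 and Ndufab1, the mitochondrial acyl carrier protein that also serves as a subunit, by 0.21 ± 0.07 (adjusted p = 0.0144 and 0.0474), and Ndufb5 had 0.21 ± 0.07 and was not called (adjusted p = 0.0511). The call for Ndufab1 was lost under the other 3 scalings (adjusted p up to 0.482) and without any library but KMF replicate 1 (up to 0.118), and that for Ndufc1 under upper quartile scaling (0.113) and without ID8 replicate 1 (0.0614).

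Ndufaf4 and Ndufaf6 act on early assembly intermediates of complex I and are not part of the finished enzyme. Ndufaf4 was at 6.03, 6.22 and 6.42 FPKM in ID8 and 14.7, 14.7 and 14.4 in KMF. The 2 groups were tight and far apart, with a fold of 2.41 (log2 fold change 1.27 ± 0.08, edgeR adjusted p = 2.86e-05). Ndufaf6 was at 5.33, 4.33 and 5.55 FPKM in ID8 and 10.8, 11.6 and 9.85 in KMF, a fold of 2.18 (log2 fold change 1.12 ± 0.16, adjusted p = 0.00106). Atp5sl, which despite its name is counted here with complex I assembly, had 0.31 ± 0.12 and was not called (adjusted p = 0.0805).

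Ndufaf6, Ndufaf4 and Ndufb6 lie in that order on chromosome 4 of mm10, at 11051045 to 11076205, 24898083 to 24905001 and 40270591 to 40279421. Coq3, a methyltransferase of coenzyme Q synthesis and no member, lies between the first pair, at 21879673 to 21912162, and rose by 1.03 ± 0.12 on the log2 scale (edgeR adjusted p = 0.000381). The other 3 members on chromosome 4, Uqcrh at 116066965, Ndufs5 at 123712710 and Sdhb at 140961203, were all called lower.

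**Figure D3:**
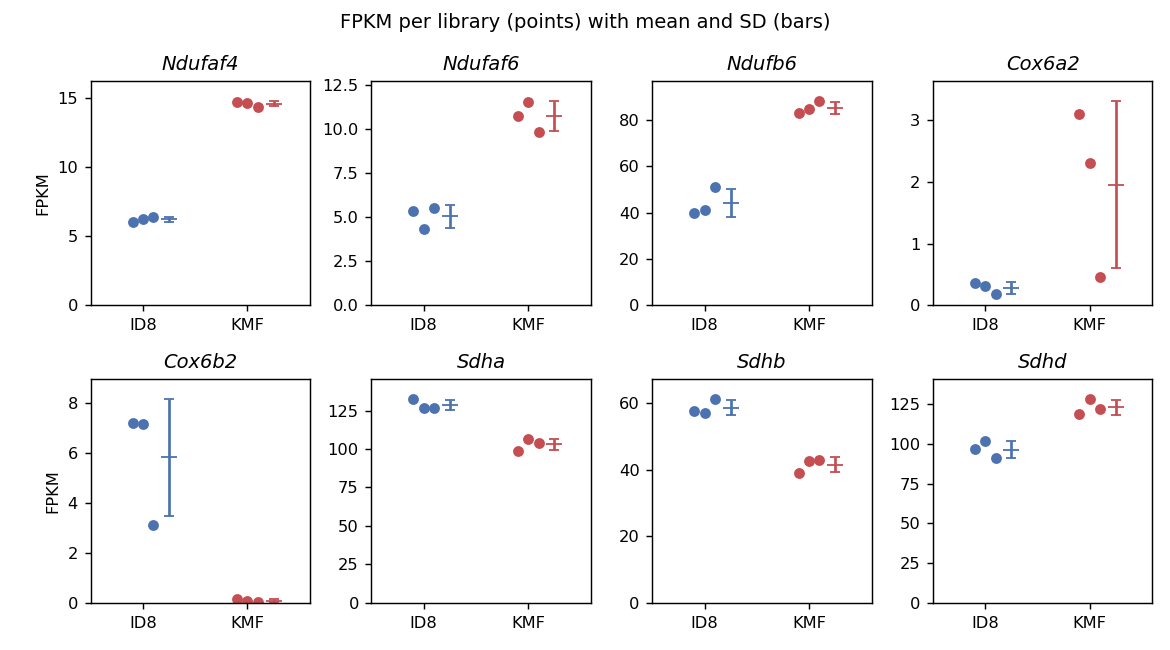
FPKM on a linear axis from 0 for 8 members, with a point for each of the 3 ID8 and 3 KMF libraries and the mean with its SD beside them. Ndufaf4, Ndufaf6 and Ndufb6 sit about level within each line and apart between the lines, 1 KMF library of Cox6a2 stands near the ID8 libraries, Cox6b2 is near 0 in KMF, and Sdhd goes up where Sdha and Sdhb go down.

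Complex II links the citric acid cycle to the chain and is built from 4 nuclear genes, of which 3 were listed and did not move together. Sdha, the flavoprotein that oxidises succinate, measured 132.4, 126.4 and 126.9 FPKM in ID8 and 98.9, 106.2 and 103.9 in KMF, a log2 fold change of -0.28 ± 0.07 (edgeR adjusted p = 0.0115). Sdhb, its iron-sulfur partner, measured 57.8, 57.0 and 61.3 in ID8 and 39.0, 42.6 and 43.1 in KMF, a change of -0.46 ± 0.07 (adjusted p = 0.00182). Both parts of the catalytic head were lower in every KMF library. Sdhd, a membrane anchor with part of the coenzyme Q site, measured 96.6, 101.6 and 91.0 FPKM in ID8 and 118.7, 128.1 and 121.7 in KMF. Each KMF library lay above each ID8 library, and the log2 fold change was 0.39 ± 0.08 (adjusted p = 0.00517). Sdhaf2, which adds the flavin to Sdha, fell by 0.29 ± 0.07 (adjusted p = 0.0152), a call lost without ID8 replicate 2 or KMF replicate 3 (adjusted p up to 0.0655).

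Complex III had few genes in the table. Of its 10 subunit genes 2 were fitted and both fell: Uqcrh, the acidic hinge protein near the cytochrome c site, by 0.25 ± 0.06 (edgeR adjusted p = 0.0157) and mt-Cytb, described below. Uqcc1, a factor needed to make cytochrome b, rose by 0.27 ± 0.08 (adjusted p = 0.0326). The call for Uqcc1 was lost under the other 3 scalings (adjusted p up to 0.231 over all 18 alternatives). It was also lost when any library but ID8 replicate 3 was left out (up to 0.127). The call for Uqcrh was lost without ID8 replicate 1, KMF replicate 1 or KMF replicate 3 (up to 0.0655). Cytochrome c itself was not listed.

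Complex IV showed the widest range of any complex among the fitted members, set at its lower end by Cox6b2. Cox6b2 and Cox6a2 are a pair of genes with restricted expression. Cox6b2, known as the testis form of subunit 6B, had 124, 101 and 47 fragments in the ID8 libraries and 2, 1 and 1 in the KMF libraries. In FPKM it was at 7.19, 7.15 and 3.13 in ID8 and 0.145, 0.0740 and 0.0515 in KMF. Over library totals, ID8 held 68.5 times the fragments of KMF, with a counting interval of 26.5 to 253 (exact, 95%, counting error only). KMF was at or under 3 fragments in each library, so Cox6b2 passed the filter on low counts only through its ID8 libraries. Its edgeR adjusted p of 0.000193 is given as a description. With at least 10 counts in every library it was not fitted. Cox6a2, known as the heart and muscle form of subunit 6A, had 7, 5 and 3 fragments in ID8 and 48, 35 and 10 in KMF, and it did not pass the filter on low counts. KMF held 6.15 times the fragments of ID8 (counting interval 3.55 to 11.4). KMF replicate 3 stood at 0.458 FPKM, between the other KMF libraries at 3.09 and 2.30 and the highest ID8 library at 0.361. Its exons share 70 bases with Itgad on the opposite strand.

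The body-wide forms of these subunits, Cox6a1 and Cox6b1, were not listed, and of the other paralog sets Cox4i1, Cox7a2 and Cox8a were. Cox8a, the nuclear member with the highest FPKM, measured 1140, 1150 and 1082 in ID8 and 821, 872 and 799 in KMF (log2 fold change -0.40 ± 0.08, edgeR adjusted p = 0.00426). Cox4i1, the common form of the regulatory subunit 4, measured 402.6, 396.3 and 374.4 in ID8 and 335.8, 306.8 and 330.4 in KMF (-0.23 ± 0.07, adjusted p = 0.038). Cox7a2 was the 1 subunit of complex IV called higher, at 137.8, 130.4 and 136.9 FPKM in ID8 and 166.1, 171.1 and 168.7 in KMF (0.36 ± 0.06, adjusted p = 0.00266). Ndufa4, first assigned to complex I and now counted with complex IV, fell by 0.42 ± 0.11 (adjusted p = 0.0228). The copper-handling factor Cox19 rose by 0.29 ± 0.10 (adjusted p = 0.0463), and Cox18, which inserts the second subunit into the membrane, had 0.34 ± 0.13 and was not called (adjusted p = 0.0783). The call for Cox19 was lost under the other 3 scalings (adjusted p up to 0.26) and without each library in turn (up to 0.127), that for Ndufa4 without ID8 replicate 1 or 2 or KMF replicate 1 or 2 (up to 0.0865), and that for Cox4i1 without ID8 replicate 1 or 2 or KMF replicate 2 or 3 (up to 0.188).

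Of 20 subunit genes of the ATP synthase 10 were fitted, with 4 called higher and 4 lower and a median of 0.21. Of all called genes, 48.9% were higher. Atp5h, subunit d of the peripheral stalk, measured 338.7, 315.0 and 388.5 FPKM in ID8 and 204.1, 226.6 and 227.0 in KMF, a fold of 1.54 lower (log2 fold change -0.62 ± 0.09, edgeR adjusted p = 0.00111). Atp5g1, 1 of the genes for the c subunit of the rotor ring, fell by 0.37 ± 0.07 (adjusted p = 0.005). Atp5s, coupling factor B, measured 9.46, 6.81 and 9.39 FPKM in ID8 and 5.11, 4.25 and 5.23 in KMF, a fold of 1.71 lower (-0.77 ± 0.17, adjusted p = 0.00939). mt-Atp6 was the other gene called lower.

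The ATP synthase genes called higher were all small changes. Atp5k, subunit e where synthase dimers meet, measured 79.1, 64.1 and 83.5 FPKM in ID8 and 106.6, 87.2 and 101.9 in KMF, a log2 fold change of 0.42 ± 0.12 (edgeR adjusted p = 0.0236). Atp5f1, subunit b of the stalk, rose by 0.34 ± 0.08 (adjusted p = 0.01, and 0.0573 under upper quartile scaling), Atp5e, subunit epsilon, by 0.25 ± 0.08 (adjusted p = 0.041), and Atp5j2, subunit f, by 0.24 ± 0.07 (adjusted p = 0.0253). The call for Atp5e was lost under the other 3 scalings (adjusted p up to 0.331 over all 18 alternatives). It was also lost when any library but ID8 replicate 3 was left out (up to 0.14). That for Atp5k was lost under upper quartile scaling (0.0906) and without ID8 replicate 1 or 2 or KMF replicate 1 or 3 (up to 0.078), and that for Atp5j2 under the other 3 scalings (up to 0.236) and without any ID8 library or KMF replicate 2 (up to 0.0808). The catalytic beta subunit Atp5b, at 654 ± 28.6 FPKM in ID8 and 737 ± 50.8 in KMF, and the rotor subunit Atp5c1, at 145 ± 9.82 and 163 ± 5.73 (SD, n = 3), were not called (adjusted p = 0.0964 and 0.0516).

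All 7 mitochondrially encoded genes listed, of 13 mRNAs, had a lower mean in KMF, and 4 were called, where 92.9% of all genes fitted were. All 7 were called under DESeq2's size factors, upper quartile scaling and DESeq2's own test, whereas mt-Atp6 alone was called without ID8 replicate 1 or without KMF replicate 3, and mt-Atp6 and mt-Co3 without KMF replicate 1. They are transcribed together from long precursors of the mitochondrial genome. Their fragments made up 2.05%, 1.68% and 1.66% of the ID8 libraries and 1.21%, 1.49% and 1.34% of the KMF libraries. The nuclear members made up 0.650%, 0.645% and 0.647% of ID8 and 0.582%, 0.587% and 0.612% of KMF. Both shares were lower in every KMF library, and ID8 replicate 1 had the highest mitochondrial share. In bulk RNA, fewer expressing cells and less RNA per cell cannot be told apart.

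**Figure D4:**
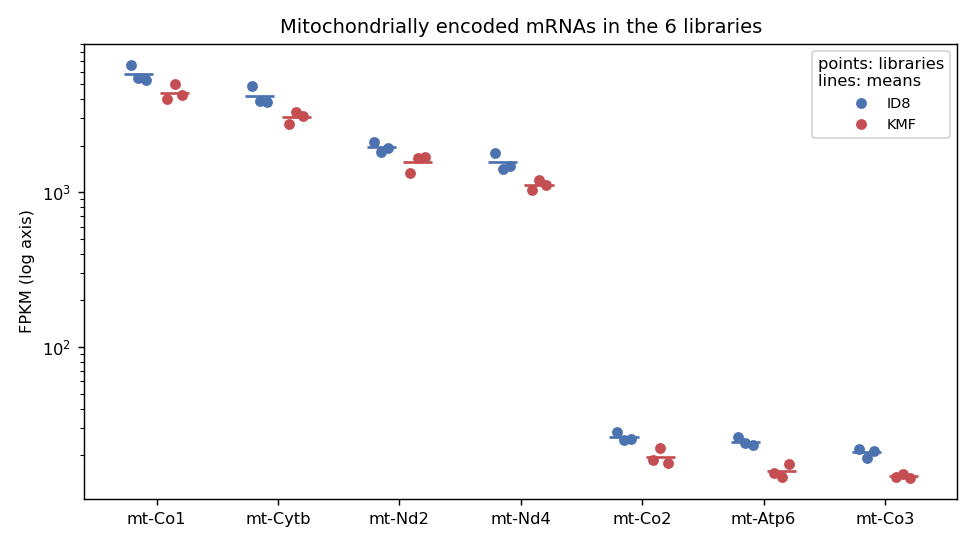
FPKM on a log axis for the 7 mitochondrially encoded mRNAs, with a point for each of the 3 ID8 and 3 KMF libraries and a line at each mean. The ID8 points lie above the KMF points for each gene, mt-Co1, mt-Cytb, mt-Nd2 and mt-Nd4 lie between 1025 and 6657 FPKM and mt-Co2, mt-Atp6 and mt-Co3 between 14.2 and 28.2.

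Among the abundant ones, mt-Nd4 of complex I measured 1798, 1409 and 1478 FPKM in ID8 and 1025, 1207 and 1106 in KMF (log2 fold change -0.45 ± 0.11, edgeR adjusted p = 0.0165). mt-Cytb, cytochrome b of complex III, measured 4836, 3852 and 3847 in ID8 and 2739, 3312 and 3099 in KMF (-0.41 ± 0.12, adjusted p = 0.0323). Both calls were lost when ID8 replicate 1, KMF replicate 1 or KMF replicate 3 was left out, with adjusted p of 0.0531, 0.0501 and 0.0597 for mt-Nd4 and 0.112, 0.0886 and 0.089 for mt-Cytb. mt-Co1, the catalytic subunit of complex IV, measured 6657, 5491 and 5283 in ID8 and 3969, 4996 and 4218 in KMF, and mt-Nd2 2115, 1824 and 1917 in ID8 and 1331, 1656 and 1691 in KMF. Neither was called, at -0.36 ± 0.14 and -0.28 ± 0.11 (adjusted p = 0.0733 and 0.0873), although both were called under DESeq2 (adjusted p = 0.0068 and 0.0128).

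The other 3 were listed far lower, although they come from the same precursors. mt-Atp6 was at 26.1, 24.1 and 23.2 FPKM in ID8 and 15.4, 14.4 and 17.5 in KMF (log2 fold change -0.59 ± 0.13, edgeR adjusted p = 0.00746). mt-Co3 was at 22.0, 19.3 and 21.4 in ID8 and 14.5, 15.2 and 14.2 in KMF (-0.48 ± 0.12, adjusted p = 0.0135, and 0.0621 and 0.0545 without ID8 replicate 1 or KMF replicate 3). mt-Co2 was at 28.2, 25.01 and 25.6 in ID8 and 18.7, 22.4 and 17.7 in KMF (-0.38 ± 0.13, adjusted p = 0.059, not called, and 0.0171 in DESeq2). In the GENCODE M21 transcripts of the same build, mt-Co2 matched the chromosome 1 gene Gm28661 over 681 of its 684 bases, mt-Atp6 matched Gm10925 over 678 of 681 and mt-Co3 matched Gm28437 over 783 of 784, each at 100% identity. mt-Nd4 matched Gm28439 over 876 of 1378 bases at 100%, mt-Co1 matched copies on chromosomes 1 and 2 over 1545 bases at up to 97.6%, and mt-Nd2 and mt-Cytb had no match of at least 150 bases at 97% identity. The 3 genes listed low were those matched at 100% identity over all but 1 to 3 bases, while mt-Co1, matched over its whole length at lower identity, had the highest FPKM of the 7. How fragments that fit both places were counted is not given in the sources used here, and its part in these levels was not tested. The FPKM of mt-Co2, mt-Atp6 and mt-Co3 are therefore uncertain as levels. Their fold changes, and the calls for mt-Atp6 and mt-Co3, rest on the same fragments and are uncertain as well.

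Among nuclear members, Atp5f1, Atp5g1, Atp5h, Ndufa12, Ndufab1, Ndufb4, Ndufs5 and Sdhaf2 had a near-identical stretch in another transcript, from 153 bases for Sdhaf2 to 696 for Atp5f1, and their values carry the same limit. The exons of 16 members overlapped those of another gene. For Atp5e the listed length was 4.03 times the longest coding transcript in GENCODE M21, so its FPKM is lower than its own transcript length would give, alike in all libraries.

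Nuclear members mostly changed in the direction of the genes around them. For each member the median log2 fold change was taken over the fitted genes that are no members within 5 Mb, where at least 5 existed. This comparison was chosen after values were seen and carries no test. Of 42 nuclear members 37 had the sign of their neighbours' median (88.1%), against 64.0% of all 6929 genes with enough neighbours and 68.0% of the 2105 among them with a mean of at least 20 FPKM in ID8. Within 2 Mb it was 32 of 40 (80.0%, against 64.3% of all genes and 67.75% of those with at least 20 FPKM). Within 10 Mb it was 33 of 42 (78.6%, against 63.2% and 67.5%). Spearman's rho between a member and its neighbours was 0.71 over the 42 members at 5 Mb, a description over genes that share libraries and, in part, neighbours. Neighbours that were not listed are missing from these medians.

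Among members above 0, the 3 on chromosome 4 had the neighbours with the highest medians at 5 Mb. The neighbours of Ndufaf6 had a median of 1.07 (22 of 28 higher in KMF), those of Ndufaf4 1.06 (9 of 11) and those of Ndufb6 0.96 (31 of 50), beside the members' own values given above. Within 10 Mb the medians were 0.79 (23 of 37), 0.53 (15 of 27) and -0.03 (39 of 78), so that Ndufb6 no longer had the sign of its neighbours. Among members below 0, Ndufb11 on chromosome X (-0.97) and Cox6b2 on chromosome 7 (-0.85) had the neighbours with the lowest medians at 5 Mb. The neighbours of Sdhb, Ndufs5 and Uqcrh on chromosome 4 had medians of -0.41, -0.56 and -0.33 at 5 Mb, but those of Ndufs5 and Uqcrh had medians of 0.31 (6 of 11 higher) and 0.39 (17 of 29) within 2 Mb, opposite to these members. On chromosome 19 all 4 members (Cox8a, Ndufs8, Ndufv1 and Sdhaf2) were called lower, and 26.2% of the 279 other called genes there were higher in KMF. On chromosome 3 all 3 members (Atp5f1, Ndufb5 and Ndufc1) were above 0, and 74.7% of the 372 other called genes were higher. On chromosome 5 the same held for 4 members (Atp5j2, Atp5k, Cox18 and Cox19) and 63.3% of 398 genes. The reverse held on chromosomes 1, 13, 15 and 16, where the members (Ndufb3, Sdha, Ndufa6 and Ndufb9, and Ndufb4) were below 0 while 53.9%, 56.6%, 52.7% and 60.0% of the other called genes were higher.

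The other 5 members differed in sign from their neighbours at 5 Mb: Ndufb3, Ndufb4, Ndufa6, Ndufc2 and Atp5s, each lower in KMF among neighbours with a median between 0.28 and 0.45. Sdhd had the sign of its neighbours on chromosome 9 (0.27), as Sdha on chromosome 13 (-0.26) and Sdhb did, but within 10 Mb the neighbours of Sdha had a median of 0.23 (15 of 29 higher), opposite to Sdha. Ndufb9 had the sign of its neighbours only at 5 Mb (median -0.02, 10 of 20 higher), where the medians within 2 Mb and 10 Mb were 0.27 and 0.39. The sign of the neighbours' median also turned for Atp5c1 (-0.45 within 2 Mb), Ndufb4 (-0.43 within 2 Mb) and Uqcc1 (-0.29 within 10 Mb). DNA copy number of these regions was not analysed here, and its part in the values was not tested.

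**Figure D5:**
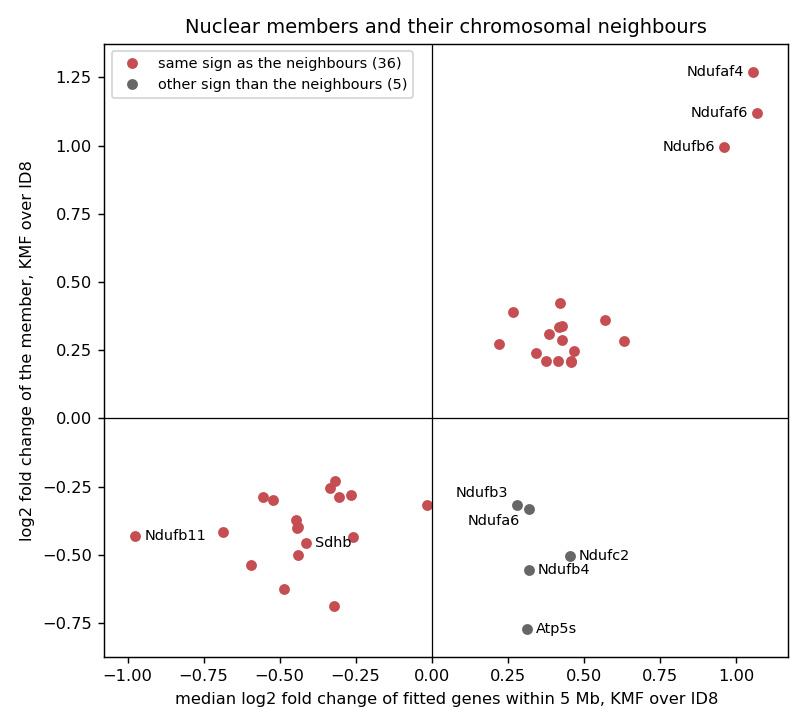
Each point is 1 of 41 nuclear members, with the median log2 fold change of the other fitted genes within 5 Mb on the horizontal axis and the member's own log2 fold change on the vertical axis, both KMF over ID8 (Cox6b2, with a neighbours' median of -0.85, lies outside the axis). Most members lie where both have the same sign, Ndufaf4, Ndufaf6 and Ndufb6 stand apart at the upper right, and 5 named members lie at the lower right.

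Promoter sequence was read for members that moved together or in opposite directions. Windows from 250 bases before to 50 after the transcription start, from RefSeq (build GRCm38.p6, the build of the files), matched 38 of the 50 members by symbol or synonym. Motifs of 4 factors or factor families known to act on respiratory genes were searched on both strands: GCGCATGCG for NRF1, CCGGAAG for ETS factors such as GABP, AAGATGGCG for YY1 and TCAAGGTCA for the oestrogen-related receptors. Matches of different motifs overlapped in 0 windows of members. Shown are the windows of Ndufaf4 and Ndufb6, which rose most among the members matched, of Atp5k, which shares the NRF1 motif with Ndufaf4, and of Cox6b2, which fell most, 5′ to 3′ on the gene's strand, in lower case with motif matches in capitals.

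Ndufaf4 (chr4:24897833-24898132, plus strand): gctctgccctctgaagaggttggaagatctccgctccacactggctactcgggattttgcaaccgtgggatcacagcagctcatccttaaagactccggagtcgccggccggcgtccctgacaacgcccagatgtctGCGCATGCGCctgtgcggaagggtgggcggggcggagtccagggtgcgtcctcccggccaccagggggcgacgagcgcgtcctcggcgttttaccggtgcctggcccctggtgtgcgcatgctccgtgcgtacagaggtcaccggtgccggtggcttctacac

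Ndufb6 (chr4:40279372-40279671, minus strand): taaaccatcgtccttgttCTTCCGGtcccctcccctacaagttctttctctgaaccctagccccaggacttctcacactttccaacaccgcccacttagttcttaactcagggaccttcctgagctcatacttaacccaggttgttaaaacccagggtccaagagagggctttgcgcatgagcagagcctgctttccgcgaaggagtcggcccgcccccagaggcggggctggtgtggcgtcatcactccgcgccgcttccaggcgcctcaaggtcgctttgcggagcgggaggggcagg

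Atp5k (chr5:108434350-108434649, minus strand): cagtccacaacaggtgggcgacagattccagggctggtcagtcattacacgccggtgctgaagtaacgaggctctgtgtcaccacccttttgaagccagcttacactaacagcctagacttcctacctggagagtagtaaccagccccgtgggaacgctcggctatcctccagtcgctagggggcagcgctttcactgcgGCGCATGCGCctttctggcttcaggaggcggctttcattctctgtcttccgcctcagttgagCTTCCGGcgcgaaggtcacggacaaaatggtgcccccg

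Cox6b2 (chr7:4753045-4753344, minus strand): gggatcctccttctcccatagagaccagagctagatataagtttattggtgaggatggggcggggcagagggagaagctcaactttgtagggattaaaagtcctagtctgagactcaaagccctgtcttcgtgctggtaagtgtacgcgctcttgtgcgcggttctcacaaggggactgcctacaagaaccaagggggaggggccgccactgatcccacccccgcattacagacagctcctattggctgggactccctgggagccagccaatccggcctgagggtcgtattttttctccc

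The ETS motif stood in 10 of the 38 members (26.3%, against 16.8% of the 5322 other listed genes and 9.93% of all 27025 genes of the table), in 4 of 16 with a positive and 6 of 22 with a negative log2 fold change. The NRF1 motif stood in 2 (5.26%, against 3.42% and 1.95%), Atp5k and Ndufaf4, which is 2 of 16 positive and 0 of 22 negative. The YY1 motif stood in 3 (7.89%, against 3.10% and 1.64%), Atp5j2, Atp5sl and Ndufc1, which is 3 of 16 and 0 of 22. Atp5sl was not called, and the calls for Atp5k, Atp5j2 and Ndufc1 were lost in some alternatives. No test of motif against direction was made. The motif of the oestrogen-related receptors stood in Sdhd alone (2.63%, against 0.376% and 0.466%). Ndufaf4 and Ndufb6, the pair from chromosome 4 that rose together, shared no motif of the 4. The window of Cox6b2 held none and 10 CpG. The median CpG was 20 over the members, 22 over the other listed genes and 8 over all genes. A match of letters is a description and says nothing of binding.

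The genes that feed, read and regulate the chain were looked at from fixed lists. Of all genes fitted, 92.9% were called, 45.4% higher and 47.5% lower in KMF. Coenzyme Q synthesis and electron entry had 8 of 21 genes listed, 5 called higher and 2 lower. Adck3, a kinase-like protein of coenzyme Q synthesis, fell from 23.5 ± 4.72 to 5.24 ± 0.588 FPKM (SD, n = 3), a log2 fold change of -2.12 ± 0.15 (edgeR adjusted p = 5.1e-05), and Coq9, which binds the coenzyme's precursors, fell by 0.71 ± 0.11. Pdss1, which makes its isoprenoid tail, rose by 1.17 ± 0.22, and Gpd2, which feeds electrons from glycerol 3-phosphate, rose from 8.19 ± 1.09 to 14.8 ± 0.558 FPKM (0.89 ± 0.11).

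Of 27 other assembly factors 8 were listed, 2 called higher and 5 lower. Oxa1l, the inner membrane insertase for mitochondrially made proteins, fell from a mean of 43.7 to 23.8 FPKM (log2 fold change -0.83 ± 0.08, edgeR adjusted p = 0.000162) and Coa7 by 0.60 ± 0.16, while Cmc2 rose by 1.11 ± 0.11 and Acad9, a complex I assembly factor, by 0.68 ± 0.08. Of 23 genes of mitochondrial DNA transcription and replication 4 were listed: Top1mt, the mitochondrial topoisomerase, at -1.13 ± 0.28, Tefm, the elongation factor, at -0.57 ± 0.14, Polg, the DNA polymerase, at 0.40 ± 0.09 and Fastkd5 at 0.76 ± 0.16, all called. The call for Top1mt was lost without ID8 replicate 1 (adjusted p = 0.0595) and that for Coa7 without ID8 replicate 2 or KMF replicate 2 or 3 (up to 0.0787).

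Among 11 regulators of mitochondrial biogenesis 7 were listed and 4 called, where 92.9% of all genes fitted were called. Gabpb2 and Gabpa, subunits of the ETS factor GABP, rose by 0.81 ± 0.10 and 0.32 ± 0.06, and Nrf1 by 0.31 ± 0.10 (edgeR adjusted p = 0.000434, 0.00608 and 0.0412), while Esrra, an oestrogen-related receptor, fell by 0.29 ± 0.10 (adjusted p = 0.0453). Ppargc1a, a coactivator of these factors, had 0.48 ± 0.16, Ppargc1b -0.60 ± 0.21 and Gabpb1 0.29 ± 0.11, and none of them was called. The calls for Nrf1 and Esrra were lost without most or all single libraries (adjusted p up to 0.106 and 0.163). Of 15 genes of ATP export and coupling 3 were listed, with Slc25a3, the phosphate carrier, at -0.24 ± 0.08, Vdac3 at -0.27 ± 0.07 and Ppa2, a mitochondrial pyrophosphatase, at 0.23 ± 0.07, all called. Leaving out a library took their adjusted p up to 0.165, 0.0655 and 0.11.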

How the data were processed

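RNA from 6 libraries of ID8 and KMF tumorspheres, 3 each, was measured. The submitters' notes name CASAVA 1.8, STAR 2.5, DESeq2 and build mm10, whereas the study's methods name TopHat2; the counter, its strand setting and the annotation are not given in the sources used here. The authors deposited raw fragment counts and FPKM per library for the genes they called, with a mean signal per line (counts scaled by DESeq2 size factors) and the log2 fold changes and p-values of their own comparison. The authors' log2 fold changes and means were not used. Their p-values served to find the 17359 genes tested, and the deposited FPKM gave each library's total.

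Counts were tested with edgeR 4.0.16 (quasi-likelihood, TMM on listed genes, filterByExpr, two-sided) and Benjamini-Hochberg adjustment over 17359 genes, in R 4.3.3. The threshold was an adjusted p of 0.05, and SE is the log2 fold change divided by the root of F. DESeq2 1.42.0 and limma 3.58.1 on log2(FPKM + 1) or log2(FPKM + 0.1) were alternatives, and the scripts were tested on simulated data. BLAST 2.17.0 compared transcripts. Same-numbered libraries deviated together with correlations of 0.07, -0.09 and 0.11. Members and lists were chosen with earlier results of these data known. The text names, by role, the 3 members called with the largest change each way and all of small groups, all mitochondrial genes and paralogs, and 2 genes each way per list. Other members named were chosen after their values were seen.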

Additional observations from a re-analysis of the deposited data

How the results depend on the processing

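Of 18 alternatives, Cox6b2 was fitted in 17 (not with at least 10 counts in every library), Cox6a2 in 9 and the other members in 18. No member changed direction in an alternative that fitted it, which is a description only, since being listed required the authors' call. Of the 40 calls, 23 held in each alternative that fitted them and 17 were lost in some. Each of the 10 members not called was called in some, but adjustment over the fitted genes alone called every member it fitted. Atp5b, Cox18 and Atp5sl were called in that alternative only. The number of members higher in KMF, 13, was 8 under DESeq2's size factors, library totals alone or at least 10 counts in every library, 5 under upper quartile scaling, 7 under the replicate block, 16 with no filter and 18 when adjusted over the fitted genes alone, where 49 of 49 members and 99.8% of all genes fitted were called. Leaving out each library in turn gave 6 to 11, with 6 without ID8 replicate 1, 7 without ID8 replicate 2 and 8 without KMF replicate 2, and gave 27 to 37 members called, 20 to 26 lower, a median of -0.28 to -0.30 and 6 to 10 changed at least 1.5-fold. The median, -0.30, was -0.35 under DESeq2's size factors and -0.41 under upper quartile scaling, which put 13 members rather than 8 past 1.5-fold. The cause of these shifts was not tested. With the replicate number as a block, 29 members were called and 22 were lower, but the numbers do not pair the samples. Low counts limit Cox6a2 and Cox6b2. Cox6a2, unfitted in the main test, had a log2 fold change of 2.78 under DESeq2 (adjusted p = 0.00435), 2.76 with no filter (0.0208), 3.27 without KMF replicate 3 (0.00242), and 1.08 and 2.11 in limma on log2(FPKM + 1) (0.0536) and log2(FPKM + 0.1) (0.039). It was not called without an ID8 replicate (adjusted p 0.0571 to 0.0679).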
